A study of Mus musculus with 16 samples.

Results

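The genes described here are 8 genes of cytokine signalling through gp130 and STAT3, namely Socs3, Socs2, Cish, Socs1, Stat3, Il6st, Osmr and Lifr, in the palate of Erk2 mutant and control mouse embryos. The set was chosen by measured values: in earlier results of these data Socs3 was higher in mutants at E14.5 and its genotype difference changed between the stages. The values of Socs3 are therefore given as a description with no p-value, and the other members are read from a fit over all genes or all probe sets. Probe sets that the platform annotation gives to one of these genes alone made up 25 of the 45101 probe sets of the array, with 6 for Socs2, 4 each for Stat3 and Il6st, 3 each for Socs3, Osmr and Lifr, and 1 each for Cish and Socs1. Of the 25, 12 reached a log2 value of 4 on at least 3 of the 16 arrays and were tested, and 13 stayed below that level. Socs1 and Osmr had no probe set above it, so 6 of the 8 genes were tested.

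RNA of the embryonic palate was measured on 16 arrays in 4 groups: Erk2 fl/fl; Wnt1-Cre mutants and Erk2 fl/fl controls at E13.5 (3 arrays each), and the same genotypes at E14.5 (5 arrays each). All 4 groups were of the C57BL/6J strain and carried the floxed Erk2 gene, and the titles call the Cre-negative controls wild-type. Wnt1-Cre is active in neural crest cells, which give rise to most palatal mesenchyme but not to epithelium, endothelium, muscle or macrophages. Since controls carry no Cre, the presence of Cre and the loss of Erk2 cannot be told apart. At E14.5 replicates 1 and 2 of both genotypes form batch 1, and replicates 3, 4 and 5 form batch 2. The design text names primary palatal mesenchymal cells and the extraction protocol names palate mesenchyme tissue. No label says that the arrays of a group came from separate embryos, so p-values measure the spread between these arrays, which may be technical. In bulk samples such as these, fewer cells of a type and less RNA per cell cannot be told apart.

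Values are log2 expression values, and the number of arrays limits their precision. The median of an array lay at 3.42 to 3.44 (mutants) and 3.39 to 3.40 (controls) for E13.5, and at 1.63 to 1.65 (mutants) and 1.63 to 1.66 (controls) for E14.5. Because whole arrays sat lower at E14.5, a change between stages cannot be told apart from that shift, and levels at the 2 stages are also given as percentiles among all probe sets of the same array. All 12 palatal mesenchyme markers, among them Osr2, Pax9 and Tbx22, were above the filter, with a mean of 8.77 ± 0.05 in mutants and 8.92 ± 0.08 in controls at E13.5 and of 8.49 ± 0.07 in mutants and 8.54 ± 0.03 in controls at E14.5. Markers of other cell types were present too. The oral epithelium list averaged 7.56 in mutants and 7.61 in controls at E13.5, and at E14.5 it averaged 8.17 ± 0.11 in mutants (8.05 to 8.32) and 7.74 ± 0.07 in controls (7.65 to 7.84), without overlap. The muscle list was also higher in mutants than in controls, at 7.64 to 8.03 against 7.11 to 7.34 at E13.5 and 6.49 to 7.84 against 5.80 to 7.10 at E14.5. No tested gene of the muscle, endothelium, macrophage, erythroid, neuron and palatal mesenchyme lists passed at either stage (limma), and 3 of 44 at E13.5 and 14 of 44 at E14.5 had an unadjusted p under 0.05, against 9.54% and 17.3% of all genes. Levels of the targeted gene were not analysed here.

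Cytokines of the interleukin 6 family bind a ligand-specific receptor chain and then gp130, the shared chain encoded by Il6st. The oncostatin M receptor (Osmr) and the leukaemia inhibitory factor receptor (Lifr) pair with gp130 for their own ligands. Bound JAK kinases phosphorylate the receptor and the transcription factor STAT3, which enters the nucleus and switches on genes such as Socs3. SOCS proteins close the loop: SOCS3 binds gp130 and blocks the kinases, SOCS1 binds the kinases, and SOCS2 and CIS, the product of Cish, are induced mainly by growth hormone, prolactin and erythropoietin through STAT5.

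STAT3 and STAT5 bind palindromic DNA of the form TTCNNNGAA, and RefSeq promoter windows of the members (build GRCm38.p6) were searched for these letters, which read the same on both strands. A promoter was in the table for 7 of the 8 genes, in 8 windows. Start sites are those of these windows, not the ends of the RefSeq spans. For Socs3, Osmr and Lifr the 250 bases before the start site lie inside the RefSeq span of the gene. Within 250 bases before the start site, the motif was found for Socs3 alone among them, once, starting 154 bases before that start. Of all 32851 promoters, 7.02% held it in that window. With the 50 bases after the start included, Cish held the motif 2 times, at bases 1 and 12 counted from the start site as base 1, against 8.3% of all promoters with at least 1. The 2 stretches are shown because they hold the matches found in these windows, with the motif in capitals. Sequence outside the windows was not searched. The Socs3 stretch lies at chr11:117969502-117969530 on the minus strand, inside the RefSeq span of the gene (chr11:117966079-117970336) and so not upstream of that span. The Cish stretch lies at chr9:107296659-107296678 on the plus strand, at the first bases of the gene. A match is a description of the sequence, and binding was not measured.
Socs3: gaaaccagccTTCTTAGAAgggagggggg
Cish: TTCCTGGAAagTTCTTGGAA

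Socs3, the feedback inhibitor of gp130, was measured by 3 probe sets, and 1455899_x_at, the brightest, stood for the gene. At E14.5 it read 7.10, 7.18, 7.31, 7.22 and 7.20 in mutants and 6.90, 6.86, 6.88, 6.84 and 6.92 in controls. All 5 mutant arrays lay above all 5 control arrays, which was also the case for 2.14% of all tested probe sets. The means were 7.20 ± 0.07 in mutants and 6.88 ± 0.03 in controls (SD, n = 5 each), a log2 difference of 0.32 ± 0.05 (moderated SE) or 1.25-fold. The difference was 0.26 in batch 1 and 0.36 in batch 2.

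At E13.5 the order of the genotypes was the opposite. The same probe set read 6.89, 7.07 and 6.88 in mutants and 7.09, 7.19 and 7.03 in controls, with 1 mutant array inside the range of the controls. The means were 6.95 ± 0.11 in mutants and 7.10 ± 0.08 in controls (SD, n = 3 each), a difference of -0.16 ± 0.06. The genotype difference at E14.5 exceeded that at E13.5 by 0.48 ± 0.08. Ordered by mean log2 value, the groups ran from E14.5 mutants (7.20) through E13.5 controls (7.10) and E13.5 mutants (6.95) to E14.5 controls (6.88), and the ranges of neighbours in this order overlapped. By percentile within the array the order changed: 87.9 in E14.5 mutants, 86.0 in E14.5 controls, 84.5 in E13.5 controls and 83.7 in E13.5 mutants.

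The other Socs3 probe sets had the same signs with less separation. Of all tested probe sets, 33.8% were higher in mutants at E13.5 and 55% at E14.5. For 67.4% the genotype difference at E14.5 exceeded that at E13.5, so these signs were common. Probe set 1456212_x_at read 6.06, 6.06, 6.24, 6.22 and 5.98 in E14.5 mutants and 5.78, 6.11, 5.80, 5.89 and 6.13 in E14.5 controls. The groups overlapped, and the differences were -0.13 ± 0.11 at E13.5 and 0.17 ± 0.09 at E14.5. Probe set 1416576_at read 2.07, 2.45, 2.41, 2.26 and 2.03 in E14.5 mutants and 1.79, 1.88, 2.00, 1.97 and 2.23 in E14.5 controls. These values lay near the centre of the arrays, at mean percentiles of 57.1 in mutants and 54.4 in controls, and overlapped, with a difference of 0.27 ± 0.10, against -0.18 ± 0.13 at E13.5. In Affymetrix naming the ending _x_at marks probes that may also match other transcripts.

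**Figure D1:**
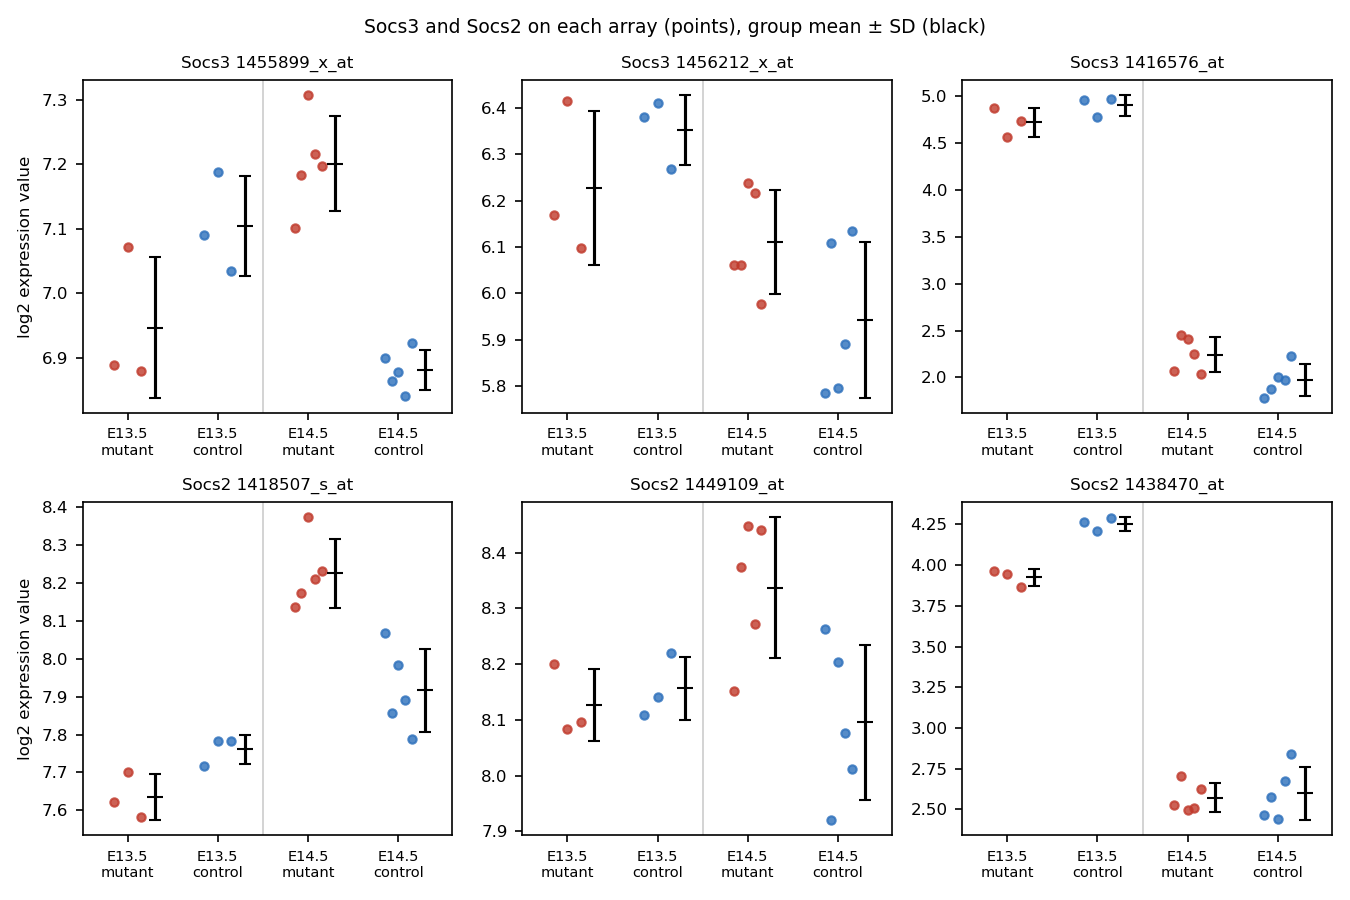
Log2 expression values of 3 Socs3 and 3 Socs2 probe sets on each array (points), with the group mean ± SD beside them in black, by stage with mutants (red) left of controls (blue). In the Socs3 panel 1455899_x_at the 5 E14.5 mutants sit between 7.10 and 7.31, above the 5 E14.5 controls, and in the Socs2 panel 1418507_s_at they sit between 8.14 and 8.37, above the E14.5 controls at 7.79 to 8.07.

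Epithelial and immediate early transcripts were higher in the same E14.5 mutants as Socs3. All 12 oral epithelium markers were higher in E14.5 mutants and 8 of them rose, where 56% of all tested genes were higher and 1.48% rose. None was near 0, the lowest value on any array being 4.05 for Sfn. The immediate early and heat shock list had a mean of 6.62 to 6.67 in E14.5 mutants and of 6.08 to 6.51 in E14.5 controls over 13 genes. At E13.5 this list averaged 6.66 ± 0.09 in mutants and 6.72 ± 0.02 in controls. The lowest list means were those of E14.5 controls 3 (6.08) and 1 (6.25), and without these 2 arrays the E14.5 difference of Socs3 was 0.33. Their Socs3 values (6.88 and 6.90) were close to the control mean of 6.88. The remaining controls, with list means of 6.34 to 6.51, still lay below every mutant. Leaving the 2 arrays out therefore cannot separate Socs3 from the list. By Xist against Y-linked transcripts, all 3 arrays of each genotype at E13.5 were female, as were 3 of 5 mutants and 1 of 5 controls at E14.5, and with sex as a term the E14.5 difference of Socs3 was 0.33. The part of the epithelial and immediate early levels in the Socs3 difference was not tested.

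**Figure D2:**
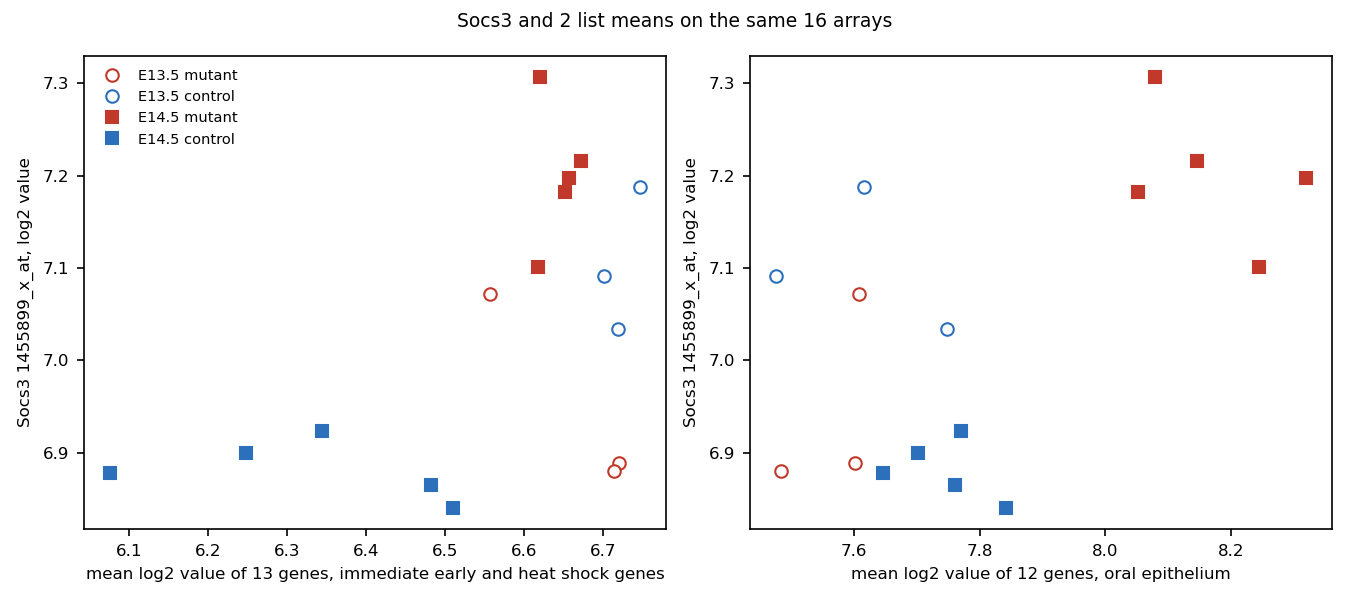
Log2 value of Socs3 probe set 1455899_x_at (vertical axis) against the mean log2 value of 13 immediate early and heat shock genes (left) and of 12 oral epithelium genes (right) on the same 16 arrays, with open circles for E13.5 and squares for E14.5, mutants in red and controls in blue. At E14.5 the mutants lie above and to the right of the controls in both panels (list means of 6.62 to 6.67 against 6.08 to 6.51, and of 8.05 to 8.32 against 7.65 to 7.84), while at E13.5 the genotypes overlap along both horizontal axes.

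Socs2, which restrains growth hormone signalling, had 1 probe set that rose in E14.5 mutants. This probe set, 1418507_s_at, read 8.14, 8.17, 8.37, 8.21 and 8.23 in mutants, against 8.07, 7.86, 7.98, 7.89 and 7.79 in controls. The mutants lay above all controls, as for 2.14% of all tested probe sets. The means were 8.23 ± 0.09 in mutants and 7.92 ± 0.11 in controls (SD, n = 5 each), and the probe set rose by 0.31 ± 0.06 or 1.24-fold (limma, adjusted p = 0.0213 over 18128 probe sets). The difference was 0.19 in batch 1 and 0.38 in batch 2. The call was lost under 6 of 30 alternatives, among them batch 1 alone (adjusted p = 0.275), the E14.5 arrays alone (0.106), and the fits without E14.5 mutant 5 (0.0577) or without E14.5 control 2 (0.0609).

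The brightest Socs2 probe set, 1449109_at, which stood for the gene, did not pass. It read 8.15, 8.37, 8.45, 8.27 and 8.44 in E14.5 mutants and 8.26, 7.92, 8.20, 8.08 and 8.01 in E14.5 controls. Mutant 1 lay inside the range of the controls, and control 1 was the highest of its group. The difference was 0.24 ± 0.07 (limma, adjusted p = 0.086 over 11115 genes), and it passed when control 1 was left out (0.31, adjusted p = 0.0235). Leaving out the highest control was bound to raise the difference, so nothing is read from that pass. With the mean over all Socs2 probe sets, those below the filter included, the difference was 0.091 (limma, adjusted p = 0.335). Low probe sets count as much as bright ones in that mean, so nothing is read from its size. In batch 1 alone 1449109_at differed by 0.17 (adjusted p = 0.446). Another probe set, 1438470_at, reached a log2 value of 4 only on the 3 E13.5 control arrays, and at E14.5 it averaged 2.57 in mutants and 2.60 in controls, all below the filter level. The remaining 3, 1442586_at, 1446085_at and 1441476_at, were below the filter, with group means between 0.82 and 3.80.

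At E13.5 no Socs2 probe set passed. Probe set 1418507_s_at read 7.62, 7.70 and 7.58 in mutants, against 7.72, 7.78 and 7.78 in controls. The mutants lay below all controls, as they did for 12.5% of all tested probe sets, and the difference was -0.13 ± 0.08 (limma, adjusted p = 0.671), while 1449109_at differed by -0.03 ± 0.09. Probe set 1438470_at read 3.97, 3.95 and 3.87 in mutants and 4.26, 4.21 and 4.29 in controls. It passed the filter through these controls alone, so a lower level in mutants was partly fixed by the filter and nothing is read from it. The change of the genotype difference between stages was 0.43 ± 0.10 for 1418507_s_at (limma, adjusted p = 0.164) and 0.27 ± 0.11 for the gene (adjusted p = 0.442). Without E14.5 controls 1 and 3 the adjusted p of 1418507_s_at was 0.0417. These controls read highest of their group (8.07 and 7.98). Leaving them out was bound to raise the difference, so nothing is read from it.

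Cish, which encodes another STAT5-induced inhibitor, showed no genotype difference that passed the test at either stage. Its probe set 1448724_at read 2.99, 3.19, 3.31, 3.13 and 3.16 in E14.5 mutants and 3.22, 3.19, 3.06, 3.21 and 3.17 in E14.5 controls. All these values lay below the filter level of 4, which the probe set reached at E13.5 alone. The mutants spanned the whole range of the controls. The difference was -0.01 ± 0.07 (limma, adjusted p = 0.947), with a 95% interval of -0.16 to 0.13. At E13.5 it read 5.22, 5.13 and 5.39 in mutants and 5.35, 5.22 and 5.11 in controls, a difference of 0.02 ± 0.09 (adjusted p = 0.966). Socs1, the interferon-linked inhibitor, was below the filter, with 0.96 to 1.22 in mutants and 0.93 to 1.06 in controls at E14.5 and 3.25 to 3.74 in mutants and 3.37 to 3.41 in controls at E13.5. Its ranges overlapped at both stages.

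Stat3, the transcription factor of the pathway, was higher in E14.5 mutants without passing the test. Probe set 1460700_at read 6.04, 5.99, 6.20, 6.24 and 6.13 in mutants and 6.00, 5.83, 5.93, 6.03 and 6.07 in controls. Its ranges overlapped, and the means of 6.12 ± 0.11 in mutants and 5.97 ± 0.10 in controls differed by 0.15 ± 0.06 (limma, adjusted p = 0.224). With the mean over all its probe sets, 2 of them below the filter, the difference of the gene was 0.015 (adjusted p = 0.936). Low probe sets count as much as bright ones in that mean, so nothing is read from its size. The second probe set above the filter, 1426587_a_at, differed by 0.07 ± 0.09. At E13.5 the differences were -0.05 ± 0.08 and -0.14 ± 0.12, and the change between stages was 0.20 ± 0.10 for 1460700_at (adjusted p = 0.508), or 0.0090 with the mean over the probe sets (adjusted p = 0.987). The other 2 probe sets of Stat3 were below the filter. These are transcript values, and phosphorylation of STAT3, by which the protein is switched on, was not measured.

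The shared receptor chain gp130, from Il6st, had probe sets of opposite sign at E14.5. Probe set 1452843_at read 6.63, 6.70, 6.55, 6.63 and 6.55 in mutants and 6.54, 6.40, 6.53, 6.52 and 6.84 in controls. Control 5 exceeded every mutant, and the difference was 0.05 ± 0.07 (limma, adjusted p = 0.801) with a 95% interval of -0.11 to 0.20. It was 0.20 in batch 1 and -0.06 in batch 2. Probe set 1437303_at read 5.65, 6.06, 6.05, 5.95 and 6.00 in mutants and 6.29, 6.18, 6.01, 5.85 and 6.23 in controls, a difference of -0.17 ± 0.11 that did not pass. At E13.5 the differences were 0.00 ± 0.10 and -0.23 ± 0.15, neither of which passed. The mean percentiles of both probe sets were between 79.8 and 85.8 in all 4 groups.

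Lifr, the receptor chain for leukaemia inhibitory factor, read 6.35, 6.62, 6.39, 6.56 and 6.55 in E14.5 mutants and 6.45, 6.60, 6.31, 6.55 and 6.77 in E14.5 controls on probe set 1454984_at. The groups overlapped, with a difference of -0.04 ± 0.09 (limma, adjusted p = 0.86), and of -0.09 ± 0.12 at E13.5 (adjusted p = 0.844). Its other probe sets were below the filter. One of these, 1425107_a_at, read 1.45, 1.82, 1.49, 1.53 and 1.60 in E14.5 mutants and 1.83, 2.21, 2.09, 1.82 and 2.14 in E14.5 controls, close to the array medians, and no test was run on it. Osmr, the oncostatin M receptor chain, lay low throughout: its 3 probe sets were between 0.36 and 2.12 on all 16 arrays.

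**Figure D3:**
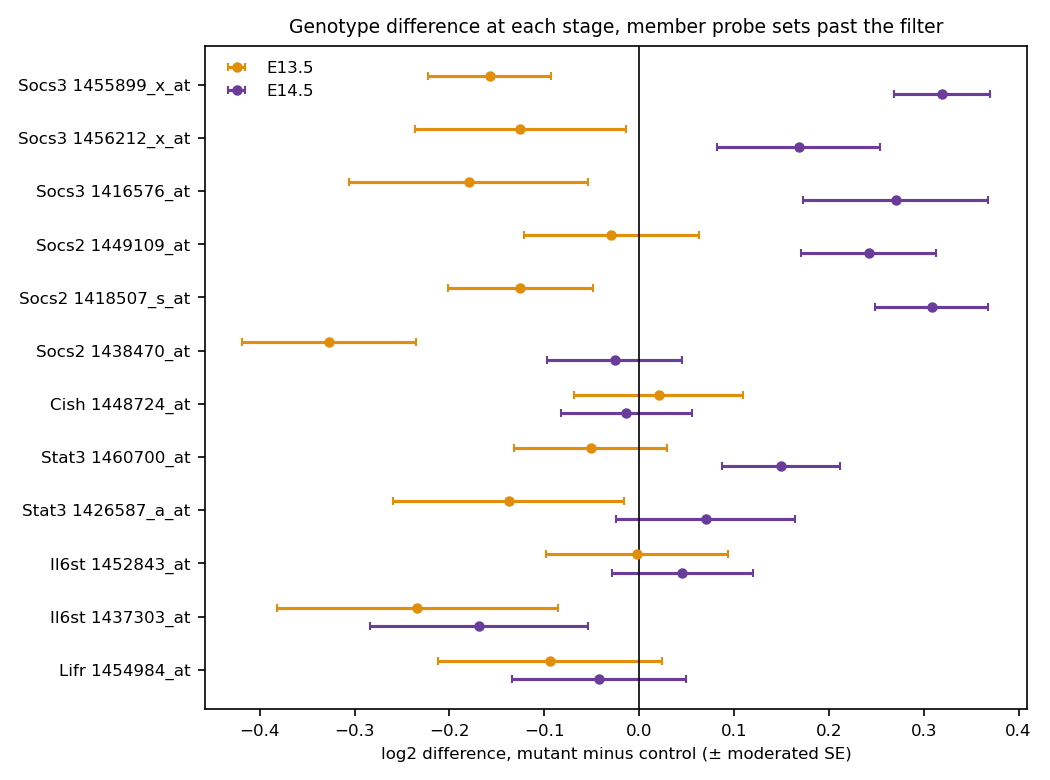
Log2 difference, mutant minus control, with its moderated SE (bars) for the 12 probe sets above the filter, at E13.5 (orange) and E14.5 (purple). The 3 Socs3 probe sets lie below 0 at E13.5 and above 0 at E14.5, Socs2 probe sets 1418507_s_at and 1449109_at lie at 0.31 and 0.24 at E14.5, and those of Cish, Il6st and Lifr lie within 0.25 of 0 at both stages.

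Beside Socs3, whose results chose the set, 1 of the 9 tested probe sets of the other members passed at E14.5, where 1.3% of all tested probe sets did. None of the 9 passed at E13.5, where 0.0552% of all did, or in the difference between stages, where 0.0386% did. At an unadjusted p under 0.05 the counts were 3 of 9 at E14.5, 1 of 9 at E13.5 and 3 of 9 in the difference, against 15.4%, 8.81% and 9.43% of all probe sets. The 1 at E13.5, which is also among the 3 in the difference, was Socs2 probe set 1438470_at, which passed the filter only through the E13.5 controls, so nothing is read from these counts. By gene, none of the 5 tested members other than Socs3 passed at E14.5, where 2.63% of all genes did, at E13.5 (0.099%) or in the difference (0.117%). By limma at an unadjusted p under 0.05 these counts were 2 of 5 (Socs2 and Stat3) at E14.5, none at E13.5 and 1 of 5 in the difference, against 17.3%, 9.54% and 10.4% of all genes.

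The log2 values of members differed between the stages, and so did those of whole arrays. Cish had a log2 mean of 3.16 in E14.5 mutants and 5.25 in E13.5 mutants, while its mean percentiles were 63.7 in E14.5 mutants and 68.4 in E13.5 mutants. In controls its log2 means were 3.17 at E14.5 and 5.23 at E13.5. Over all tested genes the median change from E13.5 to E14.5 was -0.56 in mutants and -0.63 in controls. Socs2 probe set 1418507_s_at changed by 0.59 in mutants and 0.16 in controls, and its mean percentile by 4.4 and 2.5 points. Socs3 probe set 1455899_x_at changed by 0.25 in mutants and -0.22 in controls, and its mean percentile by 4.2 and 1.4 points. These changes were not tested.

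**Figure D4:**
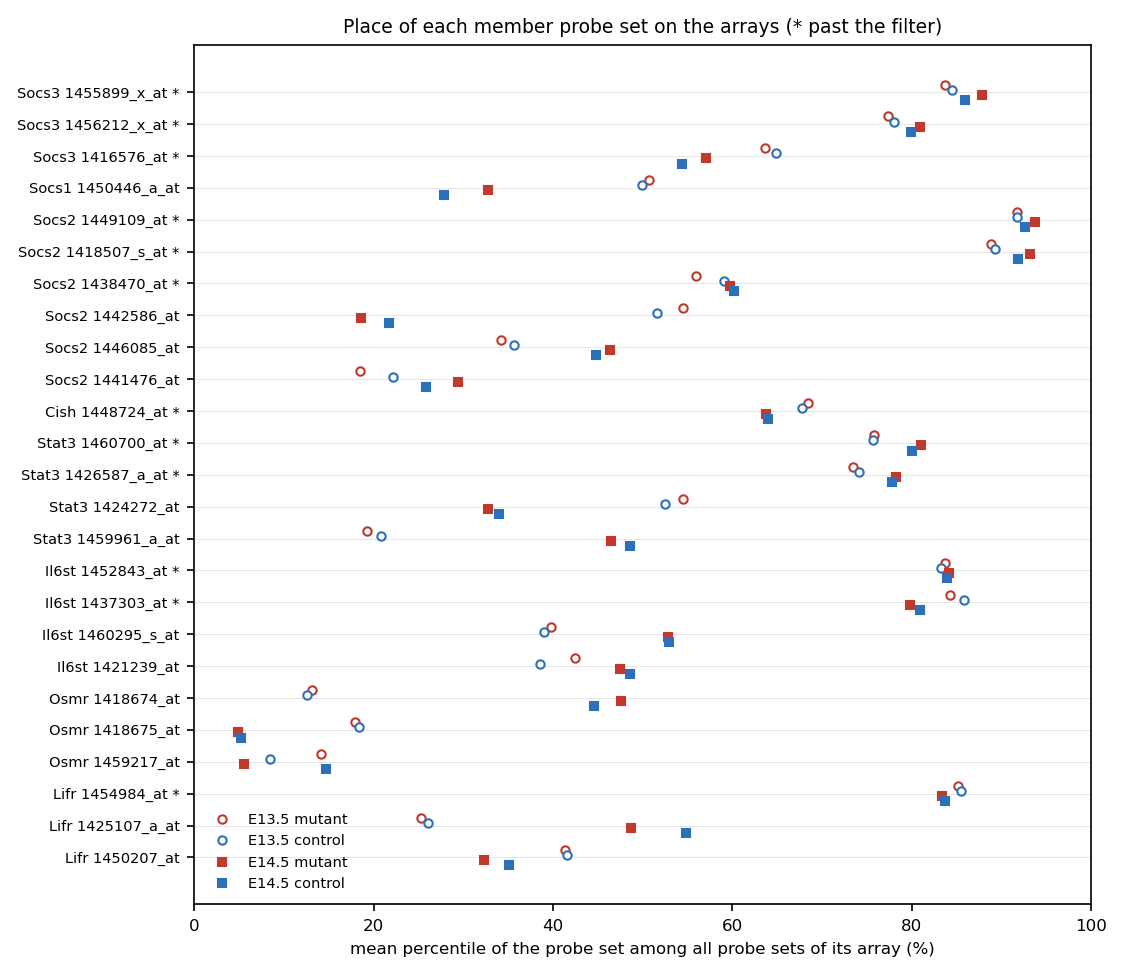
Mean percentile of each of the 25 probe sets among all probe sets of its array (horizontal axis), for mutants (red) and controls (blue) at E13.5 (open circles) and E14.5 (squares), with an asterisk at the 12 above the filter. The leading probe sets of Socs3, Socs2, Stat3, Il6st and Lifr lie above the 75th percentile in all 4 groups, Cish lies between 63.7 and 68.4, and Socs1 and the 3 of Osmr lie at or below about the middle of the arrays.

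The rest of the pathway was read from 8 lists with 80 listed genes, of which 53 were tested. Of the lists, 2 held a gene of the JAK-STAT pathway that rose at E14.5. Among 9 other inhibitors and phosphatases, Ptpn1, which encodes the phosphatase PTP1B that acts on JAK2 and TYK2, rose, and 8 did not pass, where 1.48% of all genes rose. It read 6.62, 6.44, 6.44, 6.49 and 6.45 in mutants and 6.23, 6.25, 6.28, 6.35 and 6.36 in controls, a difference of 0.20 ± 0.04 (limma, adjusted p = 0.0345), and its mutants lay above all controls, as in 2.53% of genes. With the mean over all its probe sets, whatever their level, the difference was 0.07 (adjusted p = 0.394, not passed). Without E13.5 control 1 or 2, E14.5 mutant 1, 4 or 5, or E14.5 control 1, 2 or 3, Ptpn1 no longer passed (differences of 0.15 to 0.21). Its call was lost under 18 of 32 alternatives in all. Pias3 and Sh2b3, an inhibitor of STAT3 and an adaptor that restrains JAK2, differed by -0.14 ± 0.05 and -0.17 ± 0.07 without passing.

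Among 15 tested STAT3 target genes 1 rose and none fell at E14.5, with a median difference of -0.01 (7 higher and 8 lower), against a median of 0.01 over all genes, of which 1.48% rose. The gene that rose was Icam1, an adhesion molecule for leukocytes. It read 4.11, 3.84, 3.91, 3.97 and 4.02 in mutants and 3.66, 3.55, 3.70, 3.78 and 3.71 in controls. Its mutants lay above all controls, as in 2.53% of genes. The difference was 0.29 ± 0.07 (limma, adjusted p = 0.0449), and the call was lost under 26 of 31 alternatives. Leaving out any single array ended it except E13.5 mutant 2, E13.5 mutant 3 or E14.5 mutant 2 (adjusted p up to 0.12). Timp1, an inhibitor of metalloproteinases, and Klf4, a transcription factor, differed the other way, by -0.33 ± 0.10 (adjusted p = 0.0841) and -0.23 ± 0.07 (adjusted p = 0.0811), without passing. Bcl3, Gfap, Junb, Lcn2 and Serpina3n were below the filter.

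No gene passed at E14.5 in the lists of ligands, receptor chains, SOCS genes, kinases and STATs, or growth hormone and STAT5 signalling. Of the gp130 ligands, Ctf1 (cardiotrophin 1) read 5.68, 5.73, 5.60, 5.57 and 5.65 in mutants and 5.29, 5.39, 5.44, 5.52 and 5.51 in controls. Its mutants lay above all controls, as in 2.53% of genes, with a difference of 0.22 ± 0.06 that did not pass (limma, adjusted p = 0.0821). The ligand Clcf1 differed by -0.06 ± 0.13, and Il6, Il11, Lif and Osm were below the filter. So were the receptor chains Il6ra, Il27ra and Il31ra. Cntfr, the one tested chain, differed by -0.03 ± 0.06. At E14.5 it averaged only 1.53 in mutants and 1.56 in controls, below the filter level of 4, so no absence of change is read from it. Of the 4 other SOCS genes, Socs6 differed by -0.16 ± 0.09, Socs7 by 0.08 ± 0.05 and Socs5 by -0.02 ± 0.06. Of 5 kinases and STATs, Jak2 differed by -0.11 ± 0.05, Tyk2 by -0.16 ± 0.10 and Stat6 by 0.07 ± 0.08. Tyk2 averaged 3.29 in mutants and 3.45 in controls at E14.5, below the filter level. Of 4 genes of growth hormone, erythropoietin and STAT5 signalling, to which Socs2 and Cish belong, Ghr differed by -0.13 ± 0.05, Epor by -0.14 ± 0.09 and Ccnd2 by 0.07 ± 0.04. Some listed genes were not analysed here.

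The list of immediate early and heat shock genes, which cells switch on within minutes of a stimulus, had 4 of 13 tested genes that rose at E14.5 and none that fell, where 1.48% of all genes rose. Its median difference was 0.28, with 11 genes higher in mutants. Dusp1, a phosphatase that inactivates MAP kinases, read 6.16, 5.91, 5.90, 6.07 and 6.08 in mutants and 5.67, 5.75, 5.53, 5.81 and 5.59 in controls, and rose by 0.35 ± 0.06 (limma, adjusted p = 0.011). Fos, a subunit of AP-1, rose by 0.42 ± 0.10 (adjusted p = 0.0362), the small heat shock protein gene Hspb1 by 0.39 ± 0.09 (0.0395) and Ier5 by 0.21 ± 0.04 (0.0191). The number of alternatives that ended a call was 2 of 32 for Dusp1, 7 for Ier5, 15 for Fos and 20 for Hspb1. Leaving out 1 array ended it without E14.5 mutant 5 for Ier5, without any E14.5 mutant or E14.5 control 2 or 3 for Fos, and for Hspb1 without E13.5 mutant 3, E13.5 control 3, any E14.5 mutant but replicate 4 or any E14.5 control but replicate 4. The list shares its E14.5 arrays with Socs3 and was chosen with these results known, so it is no independent evidence of its direction.

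At E13.5 and in the difference between stages none of the 53 list genes passed (limma). At an unadjusted p under 0.05 the counts were 10 of 53 at E13.5 and 15 of 53 in the difference, against 9.54% and 10.4% of all genes, and 20 of 53 at E14.5, against 17.3%. At E13.5 all 4 SOCS genes beside the members had lower means in mutants, and their median difference was -0.09, against -0.04 over all genes, of which 31.5% were higher in mutants. Socs6 differed most of them, by -0.37 ± 0.12 (adjusted p = 0.375). The early growth response gene Egr1 differed by -0.42 ± 0.14 at E13.5 (adjusted p = 0.381) and by 0.34 ± 0.11 at E14.5 (adjusted p = 0.112), and these 2 genes were picked after their values were seen.

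**Figure D5:**
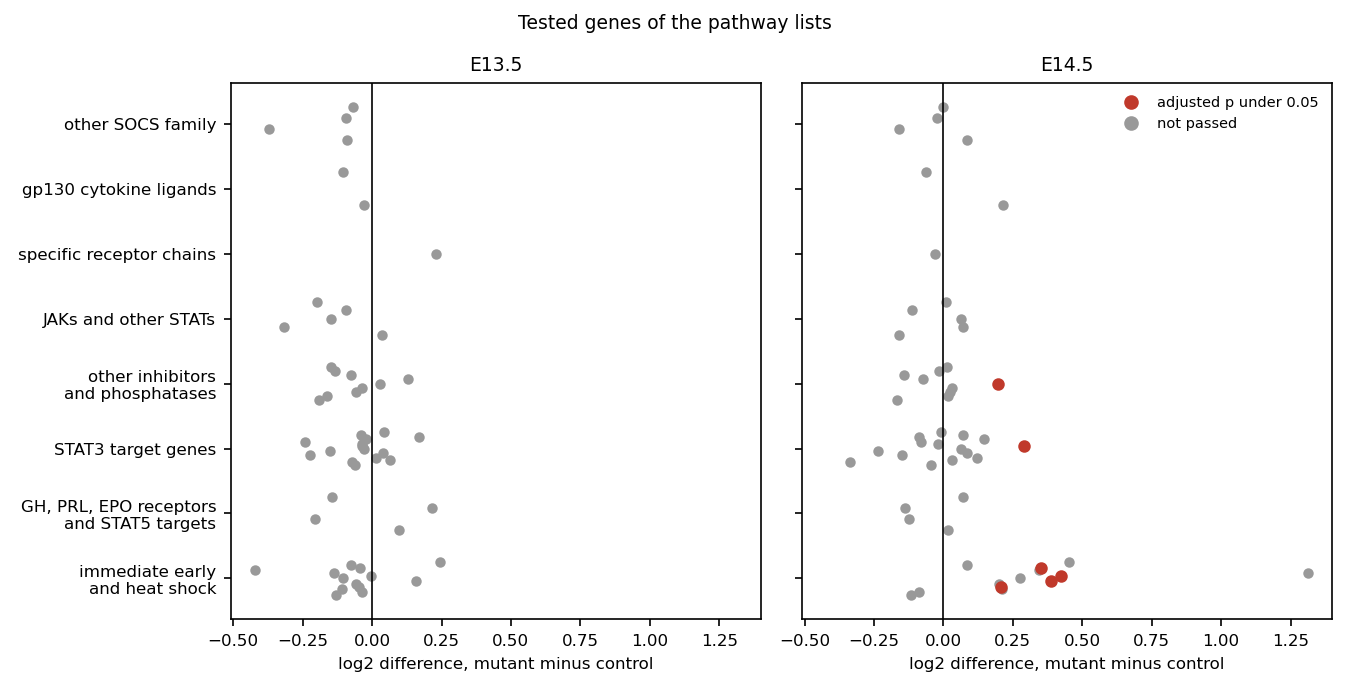
Log2 difference, mutant minus control, of each tested gene of the 8 pathway lists (rows) at E13.5 (left) and E14.5 (right), with genes past an adjusted p of 0.05 in red and the others in grey. No gene is red at E13.5, and at E14.5 the red genes are Ptpn1 (0.20), Icam1 (0.29) and 4 of the immediate early and heat shock list (0.21 to 0.42), while the grey point at 1.31 is Egr3.

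The genes whose values ran most like those of Socs3 were found by Pearson's r of the deviations from the mean of the stage, or of the batch at E14.5, over all 16 arrays and among 10806 tested genes, leaving out RIKEN clones and predicted genes. They were Ube2v2 (0.92), Tmem132c (0.91), Dubr (0.91), Adal (0.91) and Lratd2 (0.89). The genes that ran most against it were the collagen-crosslinking enzyme gene Lox (-0.84), Lamp1 (-0.84) and P4hb (-0.83). The deviations hold the genotype difference, so genes with the same pattern of means over the 4 groups score high. As a description, with no test because likeness to Socs3 chose them, Dubr, which encodes a long non-coding RNA, averaged 5.85 in E14.5 mutants and 5.26 in E14.5 controls, and Lox averaged 9.88 in E14.5 mutants and 10.05 in E14.5 controls. Among the members r was 0.66 for Socs2, 0.46 for Stat3, 0.21 for Il6st, 0.10 for Lifr and -0.01 for Cish.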

How the data were processed

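RNA of mouse embryonic palate was measured on 16 one-colour Affymetrix arrays. The deposited values are on a log2 scale, and per the submitters' processing notes the authors made them with GCRMA. The sources used here give neither its version and settings nor whether the stages were normalized together. Probe sets were named through the platform annotation: 34945 had 1 gene, 932 several and 9211 none, and 64 array controls, some of them among these counts, were left out. Of a gene's probe sets the brightest over all arrays stood for it, which gave 18193 genes, and genes or probe sets with a log2 value of 4 or more on at least 3 arrays were tested (11115 genes, 18128 probe sets). Groups were compared with limma 3.58.1 in R 4.3.3 in one lmFit and eBayes fit on all arrays across all genes, whose terms were stage by genotype and, at E14.5, the labelled batch. P-values were adjusted by Benjamini-Hochberg over all genes, or over all probe sets, and called under 0.05. The fit was tested on simulated data. The named genes were all members, of each list those called and up to 3 with the smallest p at E14.5, and the 5 most and 3 least like Socs3. The members and all lists were chosen with earlier results of these data known. Array pairs with the same replicate number had deviations with correlations of -0.17 to 0.17 among E13.5 pairs and -0.27 to 0.06 among E14.5 pairs. The pairs of replicates 1 and 2 at E14.5 have the same value by construction, and groups this small make the check weak. No pairing was used in the main fit. Alternatives covered the probe set rule, filters, normalization, variance model, batch, sex, the beta-actin end signal, the replicate block, the samples in the fit and each array left out. Figures were drawn with matplotlib 3.10.9 in Python 3.11.15.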

Additional observations from a re-analysis of the deposited data

Results flagged for a closer look

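Il6st probe set 1437303_at read 5.65 on the array of E14.5 mutant replicate 1, set apart from the nearest mutant at 5.95 by 0.734 of the range of its group, which is past Dixon's critical value of 0.71 for 5 samples. It was the one case among 50 groups of 5 arrays looked at, where chance gives about 1 in 20. The genotype difference of Socs3 at E14.5 exceeded that at E13.5 by 0.48 ± 0.08 (probe set 1455899_x_at), with opposite signs at the 2 stages. Socs3 was chosen for this difference, and it is given with no test.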

How the results depend on the processing

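The differences of Socs3 kept their sign under every alternative run: 0.25 to 0.36 at E14.5, -0.22 to -0.12 at E13.5 and 0.41 to 0.54 between the stages. The rise of Socs2 probe set 1418507_s_at at E14.5 stood at 0.27 to 0.36 with each array left out and did not pass without mutant 5 (0.31) or control 2 (0.29). It did not pass with sex as a term (0.31, adjusted p = 0.0577), with the E14.5 arrays alone (0.31), in batch 1 alone (0.19), or with the replicate block within stage (0.31, adjusted p = 0.0726). The number of genes called at E13.5 was 11, and 20 with arrays centred on their medians, 28 after further quantile normalization, 85 with array weights, 20 with no batch term, 6 with the replicate block, 6 with the beta-actin end signal as a term, and 6 to 35 with each array left out. At E14.5 it was 292, and 184 with no filter, 127 after quantile normalization, 155 with weights, 104 with the replicate block, 143 with sex as a term, 64 with the E14.5 arrays alone, 31 in batch 1, 128 in batch 2, and 105 to 262 with each array left out. For the difference between stages it was 13, and 7 over every probe set, 25 after centring, 40 with weights, 3 with the block, 6 with the actin term, 6 with batch 1, 20 with batch 2, 20 without E14.5 controls 1 and 3, and 3 to 20 with each array left out. The following values of uncalled members changed sign. With the mean over probe sets, Stat3 (0.0065) and Il6st (0.043) at E13.5, Il6st at E14.5 (-0.054), and the stage difference of Il6st (-0.097) and Lifr (-0.18) did. That mean also takes in probe sets below the filter. After quantile normalization, Stat3 (0.023) and Il6st (0.056) at E13.5 and the stage difference of Il6st (-0.022) did. With the actin term, Cish (-0.023), Il6st (0.095) and Lifr (0.0059) at E13.5 and the stage differences of Cish (0.0019), Il6st (-0.032) and Lifr (-0.031) did. After centring, Cish at E13.5 (-0.016) and its stage difference (0.0062) did, and with weights Cish (0.0096) and Lifr (0.026) at E14.5. In batch 2, Cish (0.056) and Il6st (-0.055) at E14.5 and their stage differences (0.035 and -0.053) did, as did that of Lifr without controls 1 and 3 (-0.049). With each array left out the ranges that crossed 0 were, at E13.5, -0.067 to 0.0021 for Socs2, -0.051 to 0.080 for Cish, -0.11 to 0.033 for Stat3, -0.054 to 0.063 for Il6st and -0.17 to 0.0025 for Lifr. At E14.5 they were -0.054 to 0.034 for Cish and -0.11 to 0.019 for Lifr, and between stages -0.094 to 0.038 for Cish, -0.017 to 0.12 for Il6st and -0.045 to 0.13 for Lifr. The causes were not tested. Signal near or below the array centre limits Socs1, Osmr, Socs3 probe set 1416576_at, Socs2 probe set 1438470_at and the 13 probe sets below the filter. At E14.5 it also limits Cntfr and Epor, and Cish and Tyk2 lay below the filter level.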
